A study of Mus musculus with 24 samples.

Results

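The lung response of mice that lack both receptors for the cytokine TNF was measured after 24 h of ozone (O3). The comparison set the 3 arrays of Tnfr-/- mice exposed to 0.3 ppm O3 for 24 h against the 3 arrays of Tnfr-/- mice in filtered air, which were kept in a chamber of their own, 6 of the 24 arrays of the series. Members were chosen by genotype, exposure and time alone, as the sample titles give them, and no measured value entered the choice. The Tnfr-/- mice carried targeted alleles of both receptor genes (B6.129S-Tnfrsf1a tm1Imx Tnfrsf1b tm1Imx/J), so every cell of the body lacked both receptors from conception. Tnfr+/+ mice of the strain C57BL/6J breathed filtered air or the same 0.3 ppm O3 for 24 h, with 3 arrays each, and are given beside them. For air mice of either genotype the sample titles give no hours of exposure. All mice were males 6 to 8 weeks old, and the genotypes were not stated to be littermates. Receptor loss and other differences between the strains thus cannot be told apart in any comparison of the genotypes. Each array (Affymetrix MOE430A) read total lung RNA of 1 mouse, so p-values measure the spread between animals. Values are MAS5 intensities that were quantile normalised over the 24 arrays, called normalised intensities here, and differences are log2 fold changes of O3 over air. A value given beside an adjusted p, or after "rose by", is such a log2 fold change. Chamber and exposure cannot be told apart.

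TNF is an inflammatory cytokine released early by macrophages and epithelium. It signals through TNFR1 (Tnfrsf1a) and TNFR2 (Tnfrsf1b), and TNFR1 in particular activates NF-kB and AP-1 and with them many cytokine, chemokine and adhesion genes. Inhaled O3 oxidises the lipids and proteins of the airway lining, injures ciliated and alveolar type 1 cells, and calls in neutrophils and macrophages. Other routes to the same tissue response include oxidant sensing by NRF2, signalling by the IL-6 family through gp130 and STAT3, toll-like receptors and growth factor signalling after injury.

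Gene expression changed at 24 h in lungs without TNF receptors. Of 20537 probe sets tested, 226 changed at an adjusted p under 0.05 (limma, Benjamini-Hochberg), 149 higher and 77 lower, which was 1.1% of all. The fit shared its spread over the 24 arrays, and with only the 6 arrays of the comparison 29 were called, with the methods' t-test 0, and without O3 array 1 108. At an unadjusted p under 0.01, which the study used for O3 effects in Tnfr+/+ lungs, 999 probe sets passed (4.86%), 546 of them higher and 453 lower. With 1 probe set per gene, 152 of 11597 genes passed the adjusted test (1.31%), 98 of them higher (0.845%) and 54 lower (0.466%). "Rose" and "fell" are used below only for genes that passed it. All 152 had O3 values that did not overlap the air values, as did 2634 of all genes (22.7%). Called log2 fold changes reached from 0.42 in size to 3.54 among rises and -3.19 among falls. The median over all genes was -0.02. With 1.31% of all genes called, a short list holds few calls or none by that share alone, and a single call below says little about its list. Lists were drawn up with earlier results of these data known and share members, so their counts are descriptions and not separate tests. Of the 152 genes, 52 passed without any 1 of the 6 arrays and 100 lost the call without at least 1, so for the genes given below with values each array whose removal ended the call is given.

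The 6 arrays were alike in scale, with total signals of 15161000 to 15571000, median signals of 227 to 247 and pairwise correlations of 0.949 to 0.961 of their log2 values. The 3'/5' ratios of the control probe sets, a sign of how intact the RNA was, did not overlap between the groups. For Gapdh they were 1.12, 1.03 and 1.22 on the O3 arrays and 1.44, 1.28 and 1.35 on the air arrays. For actin they were 1.10, 1.00 and 1.16 on the O3 arrays and 1.27, 1.25 and 1.20 on the air arrays. With the Gapdh ratio as a covariate, an alternative chosen after seeing the data, 316 probe sets were called, 219 of the 226 among them. The slope of that fit leaned on 1 Tnfr+/+ O3 72 h array of high ratio (4.45). In Tnfr-/- lungs the ratio and O3 cannot be told apart, and the part of the ratio in the calls was not tested. In whole lung, fewer cells of a type and less RNA per cell cannot be told apart.

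**Figure D1:**
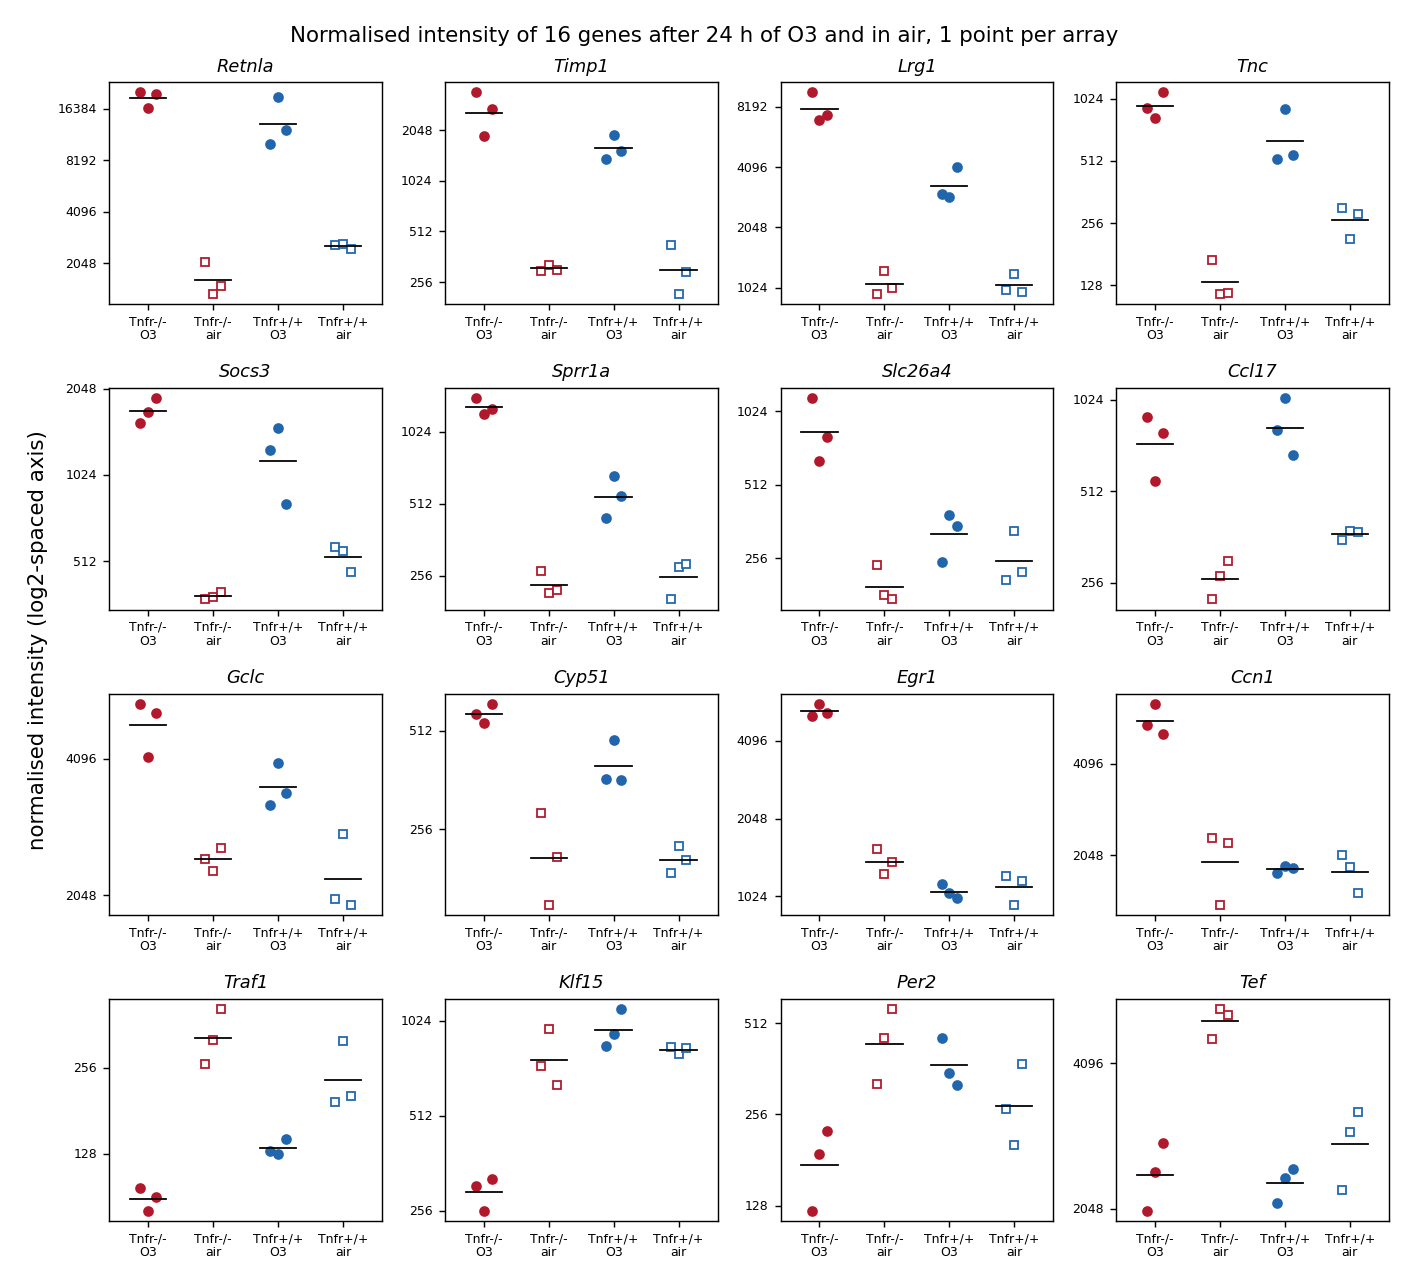
Normalised intensity on a log2-spaced axis for 16 genes, 1 point per array, with O3 24 h (filled circles) left of air (open squares) for Tnfr-/- lungs in red and then for Tnfr+/+ lungs in blue. The 3 Tnfr-/- O3 points lie clear of the 3 Tnfr-/- air points in every panel, above them in the 12 panels from Retnla to Ccn1 and below them for Traf1, Klf15, Per2 and Tef. All 152 called genes had such a gap, as did 22.7% of all genes tested.

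Retnla, a macrophage and epithelial gene of type 2 immunity, and genes of matrix repair rose. Retnla (RELM alpha, a secreted marker of IL-4-type activation) had normalised intensities of 20438, 16464 and 19893 in Tnfr-/- O3 lungs and 2092, 1356 and 1506 in Tnfr-/- air lungs. Every O3 value was several times every air value, and the rise was 11.6-fold (log2 fold change 3.54, standard error 0.19, adjusted p = 5.56e-09). Ccl17, a chemokine that draws Th2 cells, read 899, 552 and 792 in O3 and 226, 269.8 and 301 in air (log2 fold change 1.47, adjusted p = 0.000423). Ch25h, which makes 25-hydroxycholesterol in activated macrophages, read 1199, 913 and 1057 in O3 and 319.8, 221 and 248 in air (log2 fold change 2.01, adjusted p = 7.84e-05). Neither gene overlapped between O3 and air. Il4ra, the receptor chain for IL-4 and IL-13, rose by 1.02 (adjusted p = 0.0105), although 1 of its other probe sets was at -0.53 on the log2 scale (adjusted p = 0.223), and the call was lost without O3 array 1, air array 1 or air array 2 (adjusted p up to 0.0740).

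In the list of alternative macrophage activation genes, 4 of 22 measured members rose and none fell, with a median log2 fold change of 0.47 beside -0.02 over all genes. The risen members were Retnla, Ccl17, Il4ra and Ch25h. Arg1, the arginase of alternatively activated macrophages, read 104, 74.1 and 62.2 in O3 and 31, 6.08 and 6.23 in air. Its O3 arrays were all higher, but 2 air arrays read under 10, and the difference did not pass (log2 fold change 2.89, adjusted p = 0.165). With values of Arg1 under 16 set to 16 it was 1.97 (adjusted p = 0.118), and Arg1 passed with array weights (0.0218) and in the 12 Tnfr-/- arrays alone (0.0324). The chitinase-like gene Chil3 also missed the threshold, at 0.63 (adjusted p = 0.12).

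Genes of the extracellular matrix and its turnover rose next. Timp1, the inhibitor of matrix metalloproteinases, read 3434, 1896 and 2723 in Tnfr-/- O3 lungs and 298, 323 and 304 in air, an 8.46-fold rise (log2 fold change 3.08, standard error 0.22, adjusted p = 3.87e-07). The air values were nearly equal, and the lowest O3 value was over 5 times the highest of them. Tnc encodes tenascin C, a matrix protein of wounded and developing tissue, and read 917, 824 and 1096 in O3 and 169, 116 and 117 in air (log2 fold change 2.83, adjusted p = 8.36e-05). Thbs1 (thrombospondin 1, an activator of latent TGF-beta) read 3776, 4288 and 3929 in O3 and 1455, 860.2 and 906 in air (log2 fold change 1.94, adjusted p = 0.00283). None of these genes overlapped between O3 and air, and each call held without any 1 array.

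Of 37 measured matrix and repair genes, 4 rose and none fell, with a median of 0.23. These were Timp1, Tnc, Thbs1 and Adamts4, an aggrecan-cleaving protease that read 209.8, 146 and 196 in O3 and 23.3, 50.7 and 88.2 in air (log2 fold change 1.95, adjusted p = 0.00686). Of 23 TGF-beta target genes, 3 rose and none fell (median 0.10). Tgfbi, a TGF-beta-induced adhesion protein, read 2169.8, 2259 and 2055 in O3 and 1086, 1049 and 1182 in air with tight groups that did not overlap (log2 fold change 0.97, adjusted p = 0.000423), while another of its probe sets was at a log2 fold change of 0.18 (adjusted p = 0.739). Ccn1, a secreted matricellular protein, read 5489, 6459 and 5112 in O3 and 2337, 1403 and 2247 in air (log2 fold change 1.54, adjusted p = 0.000406). The remaining risen member was Junb, whose call was lost when any 1 of the 6 arrays was left out. The macrophage elastase Mmp12 (1.45, adjusted p = 0.0966) and the protease Adamts1 (0.88, adjusted p = 0.0887) did not pass.

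Acute phase genes rose in lungs without TNF receptors. Lrg1, a secreted glycoprotein induced by IL-6-type cytokines, read 9672, 7042 and 7455 in Tnfr-/- O3 lungs and 953, 1246 and 1021 in Tnfr-/- air lungs, a 7.48-fold rise (log2 fold change 2.90, standard error 0.22, adjusted p = 4.69e-07). Saa3, the serum amyloid A of macrophages and epithelium, read 368, 323 and 279 in O3 and 85.1, 98 and 77.9 in air (log2 fold change 1.89, adjusted p = 0.000221). Lcn2, which starves bacteria of iron by binding siderophores, read 3734, 2685 and 2796 in O3 and 1059, 890.2 and 854 in air (log2 fold change 1.71, adjusted p = 0.000423). For all 3 genes the lowest O3 value was over 2 times the highest air value. Itih4, a plasma protease inhibitor family member, rose by 1.08 (adjusted p = 0.00819) and Serpina3n, an antichymotrypsin-like inhibitor, by 1.24 (adjusted p = 0.0115), and both lost the call without O3 array 1 (adjusted p = 0.0525 and 0.0619).

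Il1b, an interleukin 1 cytokine of myeloid cells, read 508, 1118 and 522 in O3 and 283, 252 and 314 in air (log2 fold change 1.24, adjusted p = 0.00686). The second O3 array stood high, and the other O3 arrays were still above all 3 air arrays. Of the 30 measured members of the acute phase and inflammatory mediator list, 7 rose, none fell and 26 were positive, with a median of 0.59. The members that rose were Lrg1, Saa3, Lcn2, Itih4, Serpina3n, Il1b and Socs3. Il6, the cytokine that drives the hepatic acute phase, read 118, 88.3 and 145 in O3 and 43.1, 39.3 and 61.7 in air without overlap and just missed the threshold (log2 fold change 1.28, adjusted p = 0.0508). Il33, an epithelial alarmin, was at a log2 fold change of 0.70 (adjusted p = 0.055).

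Genes of signalling through gp130, the shared receptor of IL-6 and oncostatin M, rose in 5 of 22 measured members, none fell and 17 were positive, with a median of 0.36. Socs3, the feedback inhibitor of gp130 and STAT3, read 1561, 1702 and 1903 in O3 and 376, 383 and 401 in air (log2 fold change 2.15, adjusted p = 0.000423). The air values lay within a narrow range, and each O3 value was over 3 times any of them. Its other probe sets were at log2 fold changes of 1.24 and 1.16. Osmr, the oncostatin M receptor, read 2157, 1957 and 2165 in O3 and 1221, 1276 and 1268 in air (log2 fold change 0.74, adjusted p = 0.0105), and Pim1, a STAT-induced kinase, read 1211, 1216 and 1047 in O3 and 431, 553 and 609 in air (log2 fold change 1.14, adjusted p = 0.00266). Both genes had separate groups, but Osmr lost the call without O3 array 1 (adjusted p = 0.0572), and other probe sets of Osmr and Pim1 did not pass (0.71 and 0.55, adjusted p = 0.255 and 0.280). The other risen members were Junb and Fos, which both lost the call when any 1 of the 6 arrays was left out. Without O3 array 1 the list kept 2 calls, and without any other single array of the comparison it kept 3.

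The promoters of the risen genes are shown for 4 of them, of gp130 feedback, the acute phase, adhesion and chemotaxis, because a STAT-type motif lay in them. The sequences are the 250 bases before the start of transcription from RefSeq (GRCm38.p6), read 5′ to 3′ on the strand of the gene, and 9253 of the 11597 genes tested had one. The letters TTCNNNGAA, which read the same on both strands, were in 14 of the 79 risen genes with a promoter (17.7%), in 1 of 41 fallen genes (2.44%) and in 677 of all 9253 (7.32%). Capitals mark the match in Socs3 (chr11:117969367-117969616, minus strand, 154 bases before the start), Itih4 (chr14:30886226-30886475, plus strand, 51 bases before), Icam1 (chr9:21015690-21015939, plus strand, 42 bases before) and Ccl17 (chr8:94810203-94810452, plus strand, 99 bases before).
Socs3: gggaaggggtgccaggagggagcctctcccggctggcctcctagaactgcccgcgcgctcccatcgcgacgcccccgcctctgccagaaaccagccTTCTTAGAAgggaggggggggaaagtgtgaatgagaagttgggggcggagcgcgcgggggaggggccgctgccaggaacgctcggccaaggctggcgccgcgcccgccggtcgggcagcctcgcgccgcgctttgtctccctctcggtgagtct
Itih4: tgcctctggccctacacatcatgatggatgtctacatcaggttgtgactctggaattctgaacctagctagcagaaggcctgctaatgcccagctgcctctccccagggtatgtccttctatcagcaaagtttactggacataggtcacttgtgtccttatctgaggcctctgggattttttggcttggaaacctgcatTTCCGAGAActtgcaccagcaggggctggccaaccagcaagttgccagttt
Icam1: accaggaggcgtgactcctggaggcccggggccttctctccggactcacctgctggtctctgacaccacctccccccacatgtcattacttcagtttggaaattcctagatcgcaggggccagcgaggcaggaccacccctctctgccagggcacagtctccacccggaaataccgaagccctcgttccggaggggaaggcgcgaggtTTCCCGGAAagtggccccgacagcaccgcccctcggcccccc
Ccl17: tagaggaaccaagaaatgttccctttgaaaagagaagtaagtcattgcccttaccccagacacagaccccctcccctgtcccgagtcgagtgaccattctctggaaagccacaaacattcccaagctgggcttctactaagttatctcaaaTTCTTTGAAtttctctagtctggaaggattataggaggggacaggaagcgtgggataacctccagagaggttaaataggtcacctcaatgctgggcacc
The remaining risen genes with a match were Aldh18a1, Ifitm6, Il1f9, Nop58, Nsmce1, Rad54l, Sele, Tgm1, Tsr2 and Zfp36. The letters were in 4 of 25 acute phase promoters (16%) and in 1 of 20 of the gp130 list (5%). Of the other motifs searched on both strands in the same promoters, the antioxidant response letters TGACNNNGC were in 11 of 79 risen genes (13.9%), in 8 of 41 fallen genes (19.5%) and in 13.7% of all, and in 0 of 2 risen NRF2 genes with a promoter. A kB motif (GGG, 2 free bases and TTTCC) was in 2 of 79 risen genes (2.53%), in 0 of 41 fallen genes and in 1.84% of all, and in 0 of 5 called NF-kB target genes. These counts describe letters in a short window, and overlaps between motifs were not examined.

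NF-kB target genes, many of them TNF-induced in other settings, changed in both directions. Of 32 measured members 5 rose and 1 fell, with a median of 0.35. Ccl2, the monocyte chemoattractant, read 192, 197 and 181 in O3 and 57.1, 87.6 and 78 in air (log2 fold change 1.38, adjusted p = 0.0105). The leukocyte adhesion receptor Icam1 read 5662, 5884 and 5920.4 in O3 and 4047, 3825 and 4386 in air (log2 fold change 0.51, adjusted p = 0.0467), and endothelial E-selectin, Sele, read 109, 100.1 and 116 in O3 and 64.8, 53.1 and 60.9 in air (log2 fold change 0.86, adjusted p = 0.0278). None of the 3 genes overlapped between groups, but Icam1 lost the call when any 1 of the 6 arrays was left out (adjusted p up to 0.200), Sele without any array but air array 1 (up to 0.136), and Ccl2 without O3 array 1 or air array 1 (up to 0.0566). Il1b and Lcn2 were the other risen members.

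Traf1, a signalling adapter of TNF receptors and itself an NF-kB target, fell. It read 97.1, 80.8 and 89.8 in Tnfr-/- O3 lungs and 263, 319 and 410.1 in Tnfr-/- air lungs, 3.65-fold lower (log2 fold change -1.87, standard error 0.31, adjusted p = 0.00453). The lowest air value was over 2 times the highest O3 value. Of 37 measured TNF ligands and receptors only Tnfrsf12a, the receptor of TWEAK, rose, with 1775, 1279 and 1356 in O3 and 477, 732 and 739 in air (log2 fold change 1.19, adjusted p = 0.00631), and the list median was 0.09. Tnfsf9, the ligand of 4-1BB, was at a log2 fold change of 0.79 (adjusted p = 0.153).

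The probe sets of the disrupted genes passed no test. Tnfrsf1a read 2062, 1664 and 2249 in O3 and 2052, 1669.6 and 1654 in air in Tnfr-/- lungs (log2 fold change 0.15, adjusted p = 0.851), and 2074, 2059.6 and 2414 in O3 and 2129.7, 3096 and 2146 in air in Tnfr+/+ lungs. The brighter probe set of Tnfrsf1b read 227, 235 and 266 in O3 and 151, 205 and 234 in air in Tnfr-/- lungs (log2 fold change 0.32, adjusted p = 0.429), each below the 390.0, 449 and 359.8 in O3 and 356, 411 and 378 in air in Tnfr+/+ lungs. Its other probe set was at a log2 fold change of 0.57 in Tnfr-/- lungs (adjusted p = 0.442). Where the probes lie relative to the disrupted exons is not given in the sources used here, so a signal in Tnfr-/- lungs checks nothing about the labels.

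Of 31 measured chemokines, Ccl2 and Ccl17 rose, none fell and 25 were positive, with a median of 0.41. Ccl7, a monocyte chemokine, was at a log2 fold change of 1.84 (adjusted p = 0.0594). Cxcl1, which attracts neutrophils, read 148, 94.5 and 119 in O3 and 54.7, 7.32 and 56.1 in air. Its O3 arrays were all higher, but the second air array stood far below the others and the difference did not pass (log2 fold change 2.07, adjusted p = 0.107), with 1.10 for Cxcl1 without that array.

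Some barrier and injury genes of the epithelium rose. Sprr1a, a cornified envelope protein of squamous and wounded epithelium, read 1417, 1220.5 and 1275 in O3 and 268, 216 and 222 in air (log2 fold change 2.47, standard error 0.29, adjusted p = 0.000169). S100a14, an epithelial calcium-binding protein, read 353, 320.0 and 333 in O3 and 72, 67.4 and 62.5 in air (log2 fold change 2.32, adjusted p = 6.87e-05). Slc26a4, the anion exchanger pendrin of inflamed airway epithelium, read 1157, 639 and 805 in O3 and 240.0, 180.3 and 174 in air (log2 fold change 2.10, adjusted p = 0.000119). For each the lowest O3 value was over 2 times the highest air value, and each call held without any 1 array.

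Of 26 squamous and injury-related epithelial genes 3 rose, none fell and 15 were positive, with a median of 0.13. Before adjustment, 9 members reached p under 0.05 in the upward direction and 3 in the downward one. The matching shares of all genes were 6.56% upward and 6.63% downward. Those that rose were Sprr1a, S100a14 and Lgals3 (galectin 3), which is also abundant in macrophages and read 6321, 5319.7 and 5223 in O3 and 3506, 3526 and 3492 in air (log2 fold change 0.67, adjusted p = 0.00421). Tgm1, the transglutaminase that cross-links the cornified envelope, was outside the list and named after its values were seen. It read 233, 170.0 and 182 in O3 and 35.5, 26.2 and 70.1 in air (log2 fold change 2.26, adjusted p = 0.000423). The keratin Krt19 did not pass (0.67, adjusted p = 0.129). Bysl, a ribosome assembly factor, read 409.8, 599 and 588 in O3 and 188, 171 and 148 in air (log2 fold change 1.64, adjusted p = 0.00341), with another probe set at 0.64 (adjusted p = 0.0619).

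Antioxidant enzymes driven by NRF2 rose in 4 of 34 measured members, none fell, and 26 were positive, with a median of 0.34. Gclc, the catalytic subunit of the enzyme that limits glutathione synthesis, read 5412, 4120.1 and 5160.0 in Tnfr-/- O3 lungs and 2462, 2319 and 2601 in Tnfr-/- air lungs (log2 fold change 0.98, standard error 0.16, adjusted p = 0.00334). Gsr, which regenerates reduced glutathione, read 1202, 1143 and 1214 in O3 and 667, 661 and 683 in air (log2 fold change 0.82, adjusted p = 0.00229), and the arrays of each group were within a narrow range. Gpx2, an epithelial glutathione peroxidase, rose by 1.13 (adjusted p = 0.0105), and lost the call without O3 array 2 or air array 1 (adjusted p up to 0.0566). Akr1b8, an aldo-keto reductase of lipid aldehydes, read 2138, 1966 and 2144 in O3 and 976, 949.6 and 757 in air (log2 fold change 1.23, adjusted p = 0.000406). The pentose phosphate enzymes Pgd and Taldo1, the thioredoxin reductase Txnrd1 and the quinone reductase Nqo1 were positive at 0.71, 0.55, 0.55 and 0.82 without passing (adjusted p = 0.0551, 0.0591, 0.0593 and 0.085).

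Of 19 measured cholesterol synthesis genes 6 rose, none fell and 17 were positive, with a median of 0.53. Cyp51, the lanosterol demethylase, read 577, 538 and 619 in O3 and 288, 151 and 210.2 in air (log2 fold change 1.47, adjusted p = 0.000423). Sqle, squalene epoxidase, read 1401, 1220.1 and 1579 in O3 and 672, 610.4 and 524 in air (log2 fold change 1.22, adjusted p = 0.00261), and Lss, which closes the sterol rings, read 399, 325 and 401 in O3 and 163, 155 and 164 in air (log2 fold change 1.22, adjusted p = 0.0104). In all 3 genes the O3 arrays lay above the air arrays. Hmgcs1, at the entry of the pathway, rose by 0.79 (adjusted p = 0.015), Idi1, the isopentenyl isomerase, by 0.96 (adjusted p = 0.0349) and Sc5d, the late desaturase, by 0.73 (adjusted p = 0.0478). Fdps, the prenyl synthase, was at 1.11 and did not pass (adjusted p = 0.204).

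Several of these calls rested on single arrays or probe sets, and without O3 array 1 the list kept 2 calls. Sc5d lost the call when any 1 of the 6 arrays was left out (adjusted p up to 0.178), Idi1 without any array but air array 1 (up to 0.185), Hmgcs1 without O3 arrays 1 or 3 or air arrays 2 or 3 (up to 0.0910) and Lss without O3 array 1 (0.0584). Another probe set of Sc5d was at -0.03 on the log2 scale (adjusted p = 0.976), and no other probe set of Cyp51, Lss or Idi1 passed (0.33 to 1.12), while 1 of 3 others of Hmgcs1 did (0.77). The sterol regulatory motif TCACNCCAC, searched on both strands, was in 1 of the 5 risen pathway genes with a promoter and in 1 of 15 of the whole list. It was in 2 of 79 risen genes (2.53%, with Saa3 the other), 1 of 41 fallen genes (2.44%) and 123 of all 9253 (1.33%). It is shown in capitals in the promoter of Hmgcs1 (chr13:119690101-119690350 of GRCm38.p6, plus strand, 137 bases before the start).
Hmgcs1: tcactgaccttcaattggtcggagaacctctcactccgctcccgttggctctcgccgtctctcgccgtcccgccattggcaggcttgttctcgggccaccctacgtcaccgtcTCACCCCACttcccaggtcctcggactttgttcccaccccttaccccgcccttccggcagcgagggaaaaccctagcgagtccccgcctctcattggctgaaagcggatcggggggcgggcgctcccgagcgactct

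Immediate early genes, which are transcribed within minutes of a stimulus and usually decay within hours, rose in part at 24 h. Of 27 measured members 5 rose, none fell and 23 were positive, with a median of 0.39. Egr1, a zinc finger factor downstream of ERK signalling, read 5103, 5703 and 5248 in Tnfr-/- O3 lungs and 1559, 1256 and 1386 in Tnfr-/- air lungs, a 3.83-fold rise with narrow groups (log2 fold change 1.94, standard error 0.19, adjusted p = 2.39e-05). Fos, a subunit of AP-1, read 4926, 3800.0 and 4215 in O3 and 1428, 1268 and 1582 in air (log2 fold change 1.59, adjusted p = 0.0302). Junb, its partner, read 1392, 1309.8 and 1127 in O3 and 617, 564 and 615 in air (log2 fold change 1.09, adjusted p = 0.0277). The groups were apart for all 3 genes, but Fos and Junb lost the call when any 1 of the 6 arrays was left out (adjusted p up to 0.121 and 0.110).

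Zfp36 (tristetraprolin, which destabilises cytokine mRNA) was another risen member, with 3249, 3292 and 3289.5 in O3 and 2022, 1741 and 1968 in air (log2 fold change 0.78, adjusted p = 0.0105, lost without air array 2 at 0.0677). The growth regulator Myc, the last of them, read 388, 304 and 319.6 in O3 and 121, 163 and 130.0 in air (log2 fold change 1.29, adjusted p = 0.00508). Nr4a1, an orphan nuclear receptor, read 3239, 5279 and 4703 in O3 and 3209.5, 979 and 1186 in air. The first air array was close to the lowest O3 array, and Nr4a1 did not pass (log2 fold change 1.48, adjusted p = 0.0543). Egr2 and the antiproliferative gene Btg2 were at 0.93 and 0.79 (adjusted p = 0.0706 and 0.0747).

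Fewer genes fell than rose, 54 against 98, and transcription factors of daily rhythm were among them. Of 19 measured circadian clock genes 2 fell, none rose and 6 were positive, with a median of -0.30. The list summed to 11924 to 13808 in Tnfr-/- O3 and 17831 to 18422 in Tnfr-/- air lungs. In Tnfr+/+ lungs it summed to 11738 to 13202 in O3 and 12496 to 14658 in air, so the Tnfr-/- air sums stood above the other 3 groups. Bright genes weigh most in a sum. As a mean over genes of log2 values minus the Tnfr-/- air mean, the air arrays overlapped, at -0.025 to 0.049 in Tnfr-/- and -0.16 to -0.021 in Tnfr+/+ lungs. Per2, a repressor of the core clock, read 123, 190.0 and 226 in Tnfr-/- O3 lungs and 323, 457 and 569.7 in Tnfr-/- air lungs (log2 fold change -1.33, adjusted p = 0.016). Tef, a rhythmic PAR bZIP factor, read 2031, 2439.6 and 2804 in O3 and 4589, 5299 and 5160.0 in air (log2 fold change -1.06, adjusted p = 0.00858). The groups did not overlap, but Per2 lost the call without O3 array 1, air array 2 or air array 3 (adjusted p up to 0.0994) and Tef without O3 array 1 (0.0610), and their other probe sets did not pass (-0.62 for Per2, -0.48 and -0.40 for Tef). The PAR bZIP relatives Dbp and Hlf, the nuclear receptor Rora and Nfil3, an antagonist of PAR bZIP factors, did not pass. They were at -0.96, -0.70, -0.42 and 0.95 in that order (adjusted p = 0.0591, 0.188, 0.0943 and 0.174). The hour of death is not given in the sources used here, and its part in these values was not tested.

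Glucocorticoid-induced genes had a median of -0.22 over 24 measured members, with 1 risen, 1 fallen and, at an unadjusted p under 0.05, 9 of 24 lower and 4 of 24 higher. Over all genes, 769 were lower at that threshold (6.63%) and 761 higher (6.56%). The fallen member was Klf15, a Kruppel-like factor of amino acid and lipid metabolism, with 306, 256 and 323 in O3 and 738, 964 and 642 in air without overlap (log2 fold change -1.39, standard error 0.24, adjusted p = 0.0048). The risen member was Lcn2. The Kruppel-like factor Klf9, Pdk4, the kinase that shuts down pyruvate dehydrogenase, and the sodium channel subunit Scnn1a were at -0.79, -1.39 and -0.64 (adjusted p = 0.0688, 0.0943 and 0.0593), and another probe set of Klf9 was at -0.93 (adjusted p = 0.0459).

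The E-box CACGTG, a palindrome bound by clock factors and other bHLH proteins, was in 7 of the 41 fallen genes with a promoter (17.1%), in 6 of 79 risen genes (7.59%) and in 860 of all 9253 (9.29%). The 7 were Abca8a, Dock9, Hsph1, Klf15, Prok2, Slc35a5 and Tef. The promoters of Klf15 (chr6:90462326-90462575 of GRCm38.p6, plus strand, matches 228 and 172 bases before the start) and of 1 of the 2 starts of Tef (chr15:81802423-81802672, plus strand, 127 bases before) are shown with the match in capitals.
Klf15: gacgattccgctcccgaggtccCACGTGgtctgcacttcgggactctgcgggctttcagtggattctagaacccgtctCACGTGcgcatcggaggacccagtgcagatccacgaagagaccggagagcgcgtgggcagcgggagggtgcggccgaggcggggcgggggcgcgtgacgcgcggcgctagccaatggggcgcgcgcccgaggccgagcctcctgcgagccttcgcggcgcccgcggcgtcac
Tef: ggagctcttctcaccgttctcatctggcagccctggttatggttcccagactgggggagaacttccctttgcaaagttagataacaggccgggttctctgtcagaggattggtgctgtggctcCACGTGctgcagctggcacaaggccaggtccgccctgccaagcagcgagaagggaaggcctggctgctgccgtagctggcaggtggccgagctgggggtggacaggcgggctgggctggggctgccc

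Hsph1, a cytosolic chaperone of the Hsp110 family, read 606, 926 and 1026 in O3 and 1866, 2501 and 3082 in air (log2 fold change -1.55, adjusted p = 0.0179). It was the only fallen gene of 20 heat shock proteins and co-chaperones, whose median was -0.32 with 4 positive, and none rose. Its relative Hspa4l was at -0.91 (adjusted p = 0.0678). Hsph1 lost the call without O3 array 1, air array 2 or air array 3 (adjusted p up to 0.101), and its other probe set was at -1.14 (adjusted p = 0.105).

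Other falls at or above the median level of all probe sets were in single genes of varied roles, and larger fold changes at lower levels are not all given. Npr3, the clearance receptor of natriuretic peptides, read 549, 349 and 561 in O3 and 619, 2394 and 2335 in air. One air array was close to the O3 arrays, and the call (log2 fold change -1.67, adjusted p = 0.0479) was lost without any array but air array 1 (adjusted p up to 0.234). Tmod1, which caps actin filaments, read 198, 199 and 205 in O3 and 406, 469 and 438 in air (log2 fold change -1.12, adjusted p = 0.00276), a call that held without any 1 array. The bicarbonate transporter Slc4a5 fell by 1.07 (adjusted p = 0.00868) and lost the call without O3 array 1 (0.0591). The matrix gene Efemp1 (fibulin 3) read 904, 714 and 787 in O3 and 1848, 1631 and 1384 in air (log2 fold change -1.01, adjusted p = 0.0197). Plod2, a collagen lysyl hydroxylase, read 584, 594 and 591 in O3 and 1163, 902 and 1249.8 in air (log2 fold change -0.89, adjusted p = 0.0179), and its other probe set was at -1.15 (adjusted p = 0.00148). Fgfr3, a fibroblast growth factor receptor of alveolar epithelium, read 634, 774 and 759 in O3 and 1092, 1529 and 1423 in air (log2 fold change -0.89, adjusted p = 0.0128).

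Also fallen were the membrane protein Gpr155 (-0.97), the lipoprotein receptor Vldlr (-0.96) and Nnat, an imprinted proteolipid (-0.89). Gpr155 and Fgfr3 lost the call without O3 array 1, air array 2 or air array 3 (adjusted p up to 0.0753 and 0.0824), and Efemp1 without O3 arrays 2 or 3 or air arrays 1 or 2 (up to 0.105). Nnat lost it without any array but O3 array 1 (up to 0.184), Plod2 without any but air array 2 (up to 0.101) and Vldlr without any 1 of the 6 (up to 0.153). Of 36 xenobiotic metabolism genes 1 fell and none rose (median -0.19). It was Cyp2s1, an airway cytochrome P450 with 2068, 2014 and 2408 in O3 and 3510.3, 3687 and 3605 in air (log2 fold change -0.74, adjusted p = 0.00858), and its groups were narrow and apart.

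**Figure D2:**
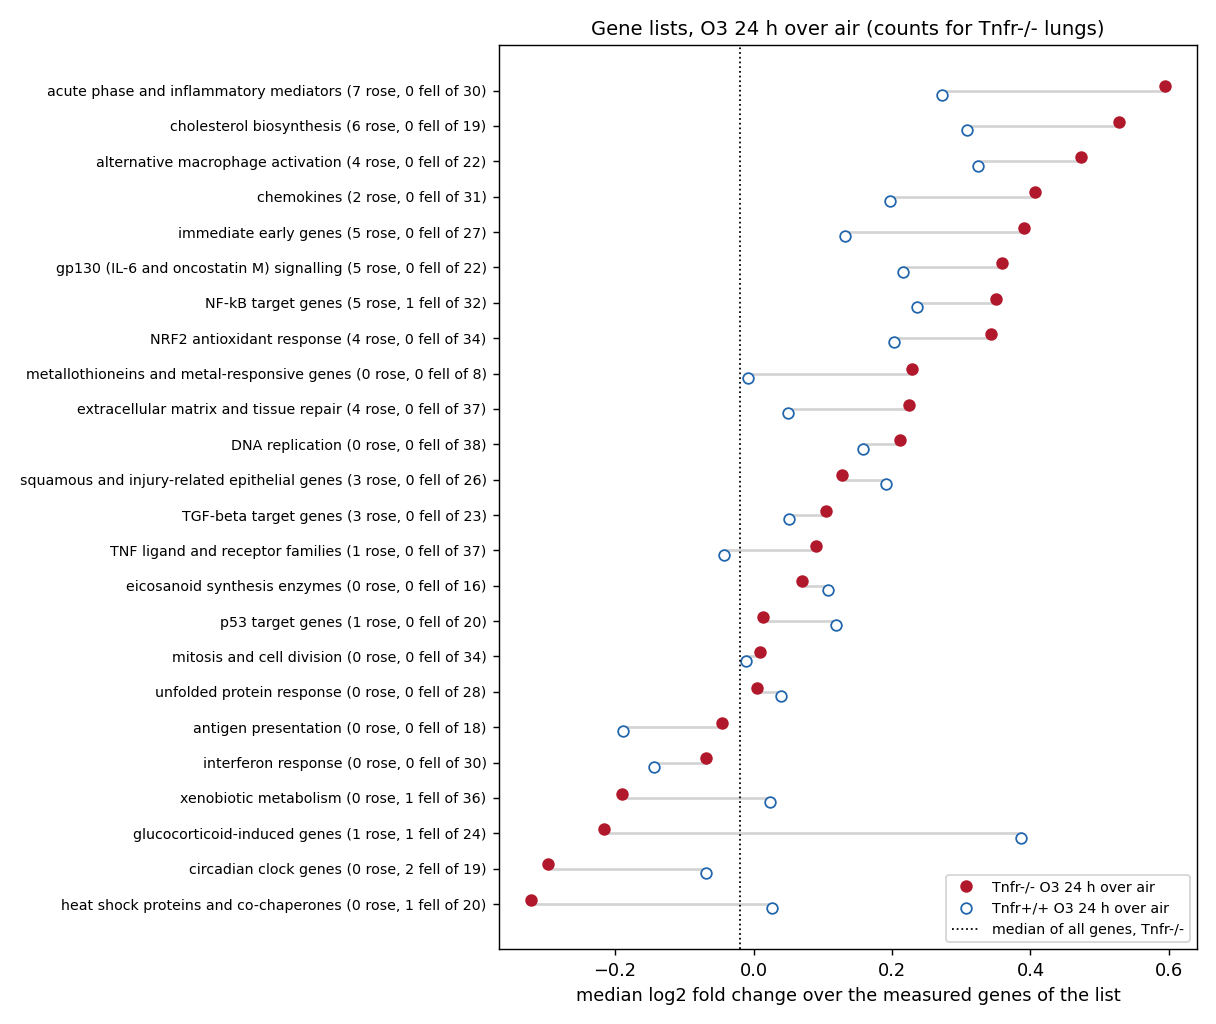
Median log2 fold change of O3 24 h over air for each process list in Tnfr-/- lungs (filled red) and Tnfr+/+ lungs (open blue), with the counts of risen and fallen genes in Tnfr-/- lungs beside each name. The dotted line is the Tnfr-/- median of all genes, and the acute phase, cholesterol and alternative macrophage lists lie farthest to its right, at 0.59, 0.53 and 0.47.

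Several processes had no called gene at 24 h, beside 1.31% of all genes called, a share at which lists of this size hold few calls or none. These were mitosis and cell division (34 measured, median 0.01), the unfolded protein response (28 measured, 0.00), interferon response (30 measured, -0.07), antigen presentation (18 measured, -0.05), eicosanoid synthesis (16 measured, 0.07) and metallothioneins (8 measured, 0.23). At an unadjusted p under 0.05 no interferon or antigen presentation gene passed in either direction. DNA replication had none of 38 called, but 29 were positive and 9 were higher at an unadjusted p under 0.05 (median 0.21), with Uhrf1, Mcm5 and Rrm2 at 1.02, 0.63 and 0.74 (adjusted p = 0.0628, 0.0786 and 0.089). Of 20 p53 targets only Gadd45g, a growth arrest gene, rose (1.30, adjusted p = 0.0479, lost without any array but O3 array 2 at up to 0.194).

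Cell type markers moved in places beside these genes. Of 11 alveolar type 1 markers 1 was positive and the median was -0.34. The summed normalised intensity of the list was 65859 to 67434 on the O3 arrays and 77241 to 78333 on the air arrays in Tnfr-/- lungs, and 72359 to 75998 in O3 and 76150.0 to 79081 in air in Tnfr+/+ lungs. Rtkn2, a type 1 cell marker, read 353, 407 and 643 in O3 and 916, 853 and 874 in air and was the only called member (log2 fold change -0.96, adjusted p = 0.026, lost without any array but O3 array 3 with adjusted p up to 0.130). The defining markers Ager and Cav1 were at -0.34 and -0.48 (adjusted p = 0.298 and 0.115). Fibroblast markers had none of 20 called, 5 lower at an unadjusted p under 0.05 and a median of -0.13. Among 26 endothelial markers 1 fell, Thbd (thrombomodulin, -0.67, adjusted p = 0.0208, lost without O3 arrays 2 or 3 or air arrays 2 or 3 at up to 0.116), and the median was -0.16. Among 10 ciliated cell markers the tektin Tekt2 fell (-0.87, adjusted p = 0.0438, lost without any array but air array 1 at up to 0.217), and 1 of the 10 was positive.

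Markers of several leukocytes were more often positive than negative. NK and cytotoxic markers (7 of 16 positive, median -0.02) and eosinophil markers (3 of 6 positive) were not. The 13 neutrophil markers summed to 6334 to 9219.7 on the Tnfr-/- O3 arrays and 3939.9 to 4461 on the Tnfr-/- air arrays, with 10 positive, a median of 0.23 and Lcn2, which epithelium also makes, as the only called member. Lcn2 alone, with its values given above, made up much of the gap between these sums. In Tnfr+/+ lungs the sums were 4410.1 to 5447 in O3 and 6225 to 7088 in air. The neutrophil genes S100a8 and S100a9 were at 0.88 and 1.01 (adjusted p = 0.578 and 0.484), and S100a8 read 865, 1715 and 497 in O3 and 390.1, 377 and 806 in air, with overlap. Of 16 B cell markers 15 were positive with none called (7 higher at an unadjusted p under 0.05, median 0.43), and they summed to 8860.2 to 10438 on O3 arrays and 5177 to 7958 on air arrays. Of 18 alveolar macrophage markers Cd68, a lysosomal protein of macrophages, rose (726, 1016 and 618 in O3, 418, 369.7 and 307 in air, log2 fold change 1.09, adjusted p = 0.00522), and the cholesterol exporter Abcg1 fell (1111, 1249.8 and 1366 in O3, 1967, 1850.5 and 2541 in air, log2 fold change -0.76, adjusted p = 0.0105, lost without O3 array 1 or air array 3 at up to 0.0762). The list summed to 26768 to 30828 in O3 and 24959 to 27012 in air, with overlap. T cell markers had a median of 0.33 with none of 16 called, and the sign changed in 1 of 20 alternatives (-0.07). The part of these shifts in the inflammatory and repair genes was not tested. The muscle gene Myot rose at low values (41, 58.3 and 30 in O3, 10, 23.1 and 8.43 in air, adjusted p = 0.0391, lost without O3 arrays 1 or 2 or air arrays 1 or 3 at up to 0.194), and 5 of the 14 skeletal muscle markers were positive.

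**Figure D3:**
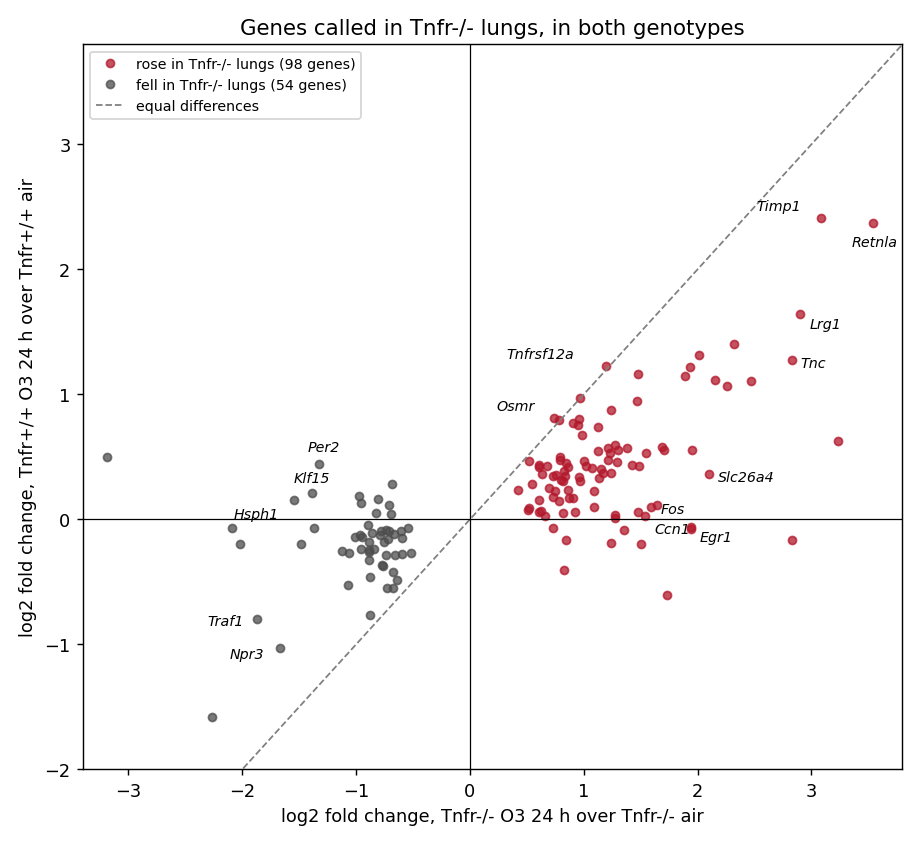
Log2 fold change of O3 24 h over air in Tnfr-/- lungs (x axis) against that in Tnfr+/+ lungs (y axis) for the 152 genes called in Tnfr-/- lungs, 1 point per gene, with the dashed line of equal differences. Most risen genes lie to the right of 0 and above 0 but under the dashed line, with medians of 1.11 in Tnfr-/- lungs and 0.41 in Tnfr+/+ lungs.

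The same exposure gave fewer calls in Tnfr+/+ mice. In Tnfr+/+ lungs 11 genes passed (0.0949% of 11597), 10 of them higher (0.0862%). The 2 comparisons share no array. Of the 98 genes risen in Tnfr-/- lungs, 88 had a positive difference in Tnfr+/+ lungs (89.8%, beside 50.6% of all genes), and of the 54 fallen genes 43 had a negative one (79.6%, beside 49.4%). The medians were smaller in Tnfr+/+ lungs, 1.11 in Tnfr-/- against 0.41 in Tnfr+/+ for risen genes and -0.87 in Tnfr-/- against -0.17 in Tnfr+/+ for fallen genes, and since the genes were chosen for passing in Tnfr-/- lungs this gap is a description. Air levels also differed. As a mean log2 value minus the Tnfr-/- air mean, acute phase genes were at -0.07 to 0.04 in Tnfr-/- air and 0.20 to 0.37 in Tnfr+/+ air. In O3 they overlapped, at 0.47 to 0.93 in Tnfr-/- and 0.55 to 0.61 in Tnfr+/+ lungs. Chemokine and matrix lists were also higher in Tnfr+/+ air, while gp130 and cholesterol lists overlapped in air. The part of air levels in the gap was not tested. The genes called higher in both were Ccl17, Ch25h, Lrg1, Osmr, Retnla, S100a14, Timp1 and Tnfrsf12a, which is 8.16% of the 98 and 80% of the 10.

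Among the shared rises, Retnla read 10151, 19164 and 12353 in Tnfr+/+ O3 lungs and 2625, 2669 and 2476 in Tnfr+/+ air lungs (log2 fold change 2.37), beside 3.54 in Tnfr-/- lungs. Timp1 read 1375, 1918 and 1548 in Tnfr+/+ O3 and 424, 218 and 292 in Tnfr+/+ air (2.41, beside 3.08), and Lrg1 read 2997, 2907 and 4094 in Tnfr+/+ O3 and 996, 1201 and 976 in Tnfr+/+ air (1.64, beside 2.90). In all 3 genes the O3 arrays of either genotype lay above all air arrays of both. Tnfrsf12a was at 1.19 in Tnfr-/- and 1.23 in Tnfr+/+, and Osmr at 0.74 and 0.81 in the same order. The genes called higher in Tnfr+/+ lungs but not in Tnfr-/- lungs were Slco1a5, an organic anion transporter, and Mt2, a metallothionein that was at 1.16 in Tnfr-/- lungs (adjusted p = 0.0749) and 1.93 in Tnfr+/+ lungs (adjusted p = 0.0131). The difference of Mt2 between the genotypes did not pass (interaction -0.77, adjusted p = 0.85).

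The interaction, which tests whether the O3 difference itself differed between genotypes, was called for 2 of 11597 genes (0.0172%). One was Egr1, with 1146, 1051 and 1009 in Tnfr+/+ O3 lungs and 1233, 948 and 1176 in Tnfr+/+ air lungs (log2 fold change -0.06). The Tnfr-/- O3 arrays of Egr1 were over 4 times any Tnfr+/+ array, and the interaction was 2.00 (adjusted p = 0.00548). The other was the unnamed transcript AA545190, which fell in Tnfr+/+ lungs (7.80, 18.5 and 8.18 in O3, 78.5, 72 and 72.9 in air, log2 fold change -2.82, adjusted p = 1.62e-05) and not in Tnfr-/- lungs (76, 68.4 and 68.2 in O3, 45.3, 62.7 and 53.7 in air, log2 fold change 0.40, adjusted p = 0.583), with an interaction of 3.22 (adjusted p = 0.0013). Both were called without any 1 of the 12 arrays. The Tnfr+/+ O3 values of AA545190 lay near the low end of the scale, and with values under 16 set to 16 its interaction was 2.55 (adjusted p = 0.000197). In the fit to the 12 arrays alone AA545190 lost the call (0.111), and Egr1 kept it (0.0164).

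At an unadjusted p under 0.05 the interaction passed for 752 of all genes (6.48%) and for 108 of the 152 genes called in Tnfr-/- lungs, a set whose choice favours large Tnfr-/- differences. Ccn1 had an interaction of 1.51 (adjusted p = 0.114), with 1785, 1893 and 1854 in Tnfr+/+ O3 lungs and 2047, 1873 and 1537 in Tnfr+/+ air lungs, which overlapped. Slc26a4 had 1.74 (adjusted p = 0.181), Il1b 1.43 (adjusted p = 0.288), Klf15 -1.60 (adjusted p = 0.28) and Per2 -1.77 (adjusted p = 0.286). Klf15 read 854, 931 and 1116 in Tnfr+/+ O3 lungs and 847, 805 and 839 in Tnfr+/+ air lungs (0.21), and Per2 read 458, 350.0 and 320.4 in Tnfr+/+ O3 lungs and 267, 203 and 376 in Tnfr+/+ air lungs (0.44). Neither gene was called in Tnfr+/+ lungs, and none of these 5 interactions passed the adjusted test. The glucocorticoid-induced list had 9 of 24 members past an unadjusted p under 0.05 in the interaction and list medians of -0.22 in Tnfr-/- and 0.39 in Tnfr+/+, and the B cell list had 10 of 16 and medians of 0.43 in Tnfr-/- and -0.33 in Tnfr+/+. The RNA ratio for Gapdh in Tnfr+/+ lungs was 1.53, 1.74 and 1.54 in O3 and 1.31, 1.41 and 1.56 in air, with overlap. In the covariate fit 3 probe sets were called, but its slope leaned on 1 Tnfr+/+ O3 72 h array of high ratio. The part of the ratio in these interactions was thus not tested.

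**Figure D4:**
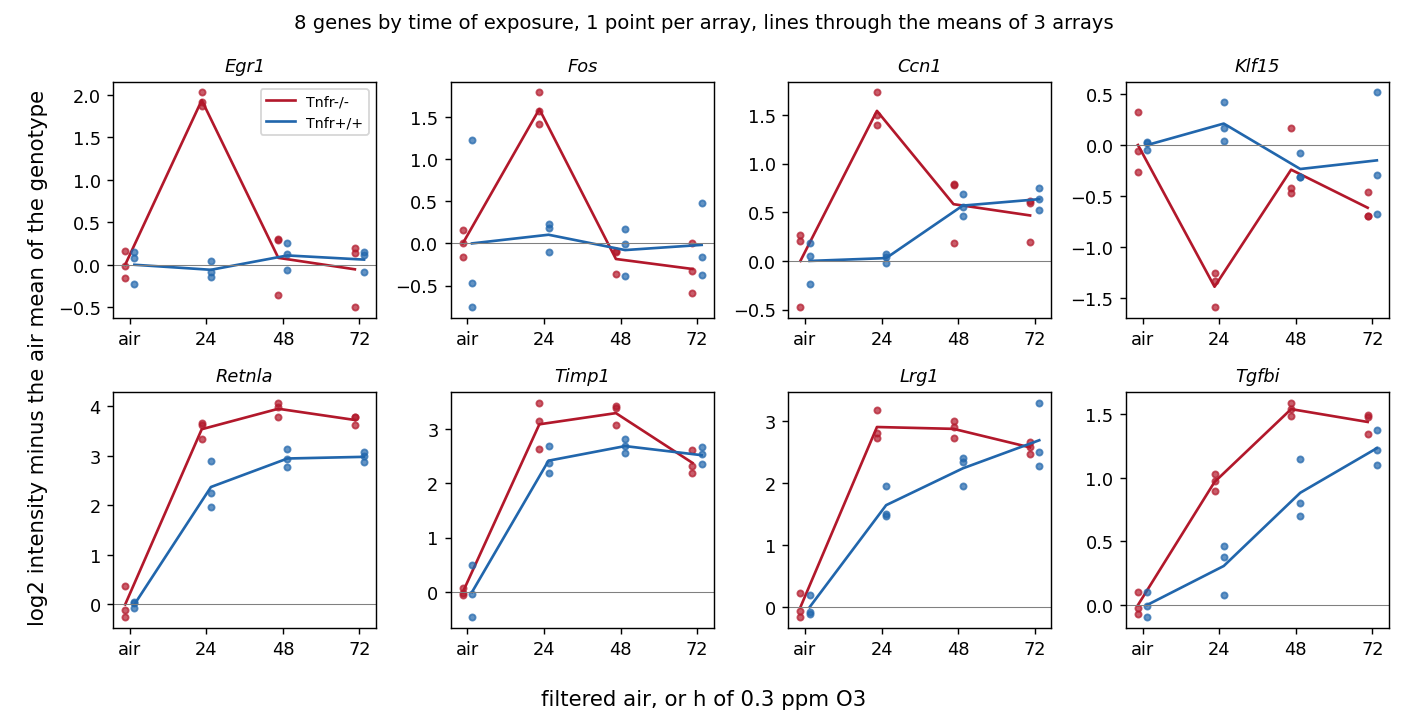
Log2 intensity minus the air mean of the same genotype for 8 genes in air and after 24, 48 and 72 h of O3, 1 point per array, with lines through the means of 3 arrays, in red for Tnfr-/- and in blue for Tnfr+/+ lungs. In Tnfr-/- lungs Egr1 and Fos were near their air mean at 48 and 72 h, Ccn1 and Klf15 were nearer to it than at 24 h, and Retnla, Timp1, Lrg1 and Tgfbi stayed above it at all times.

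In Tnfr-/- lungs 474 genes were called at 48 h (4.09%) and 493 at 72 h (4.25%), against the same 3 air arrays, so the times are given side by side and not as independent tests. At 24, 48 and 72 h the log2 fold changes of Retnla were 3.54, 3.95 and 3.72, those of Timp1 3.08, 3.29 and 2.37, Lrg1 2.90, 2.87 and 2.58, and Tgfbi 0.97, 1.54 and 1.44. Egr1 had 1.94, 0.08 and -0.05, Fos 1.59, -0.18 and -0.30, Ccn1 1.54, 0.58 and 0.47, and Zfp36 0.78, 0.25 and 0.08. Of the fallen genes, Per2 had -1.33, -0.55 and 0.26, Klf15 -1.39, -0.24 and -0.62, and Hsph1 -1.55, 0.30 and 0.63.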

How the data were processed

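Total lung RNA of 24 mice, 8 groups of 3, was hybridised to MOE430A arrays, and samples were grouped by their titles. The authors deposited 1 linear intensity per probe set and array, summarised with MAS5 in Affymetrix Expression Console per the submitters' processing notes. Other steps are not given in the sources used here. The deposited intensities of all 24 arrays were quantile normalised, values under 1 were raised to 1, and log2 was taken. Of 22644 probe sets, 64 controls were left out, and 20537 that reached the 20th percentile of some array were kept, covering 11597 genes. A gene was read by its probe set of highest mean, and 19 called probe sets had no single gene name.

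The 8 group means were fitted with limma 3.58.1 (lmFit and eBayes, R 4.3.3), with 16 residual and 2.38 prior degrees of freedom, so all groups shared 1 estimate of spread. Adjusted p-values are Benjamini-Hochberg values over the probe sets kept, and the test was checked on simulated data. The number of arrays limits the precision. Named were the 15 largest rises and 15 largest falls among called genes at or above the median level without overlap, called interaction genes, both receptor genes and, of 24 process and 23 marker lists, called members and up to 4 further members by p. Other genes were named after their values were seen. The lists held 1029 genes, 872 of them tested. Members and lists were chosen with earlier results of these data known, and some genes, such as Lcn2 and Junb, were in several lists. Alternatives were the normalisation, filter, floor, arrays in the fit, array weights, test, probe set and single arrays left out.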

Additional observations from a re-analysis of the deposited data

Results flagged for a closer look

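The genotype by O3 interaction test called 2 genes at 24 h, whose O3 difference thus differed between Tnfr-/- and Tnfr+/+ lungs. Egr1, an immediate early transcription factor, had an interaction of 2.00 on the log2 scale (adjusted p = 0.00548), with log2 fold changes of 1.94 in Tnfr-/- lungs and -0.06 in Tnfr+/+ lungs. It was higher with O3 in 3 of 3 Tnfr-/- arrays, while the Tnfr+/+ groups overlapped. AA545190, a transcript without a described role here, had an interaction of 3.22 (adjusted p = 0.0013), with log2 fold changes of 0.40 in Tnfr-/- lungs and -2.82 in Tnfr+/+ lungs. It was lower with O3 in 3 of 3 Tnfr+/+ arrays. With values under 16 set to 16 the interaction of AA545190 was 2.55, the call was lost in the fit to the 12 arrays alone (adjusted p = 0.111), and AA545190 was left out by the filter at the median, while Egr1 was called in both.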

How the results depend on the processing

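Of 226 probe sets called in Tnfr-/- lungs, 17 in Tnfr+/+ lungs and 2 in the interaction, the counts stayed within 1.5 times without quantile normalisation (216, 15 and 2), with cyclic loess (213, 16 and 2), without a filter (204, 16 and 2), with a floor of 16 (234, 18 and 2) and, after seeing the data, with the Gapdh ratio as a covariate (316, 19 and 3). A filter at the median on 3 arrays gave 326, 19 and 1. Without the Tnfr+/+ O3 72 h array of high Gapdh ratio (4.45) the shared fit gave 365, 28 and 4, and array weights gave 660, 34 and 4. The arrays of the comparison alone gave 29, 0 and 1 (907, 282 and 399 at an unadjusted p under 0.01). The methods' t-test, run here with no shared spread, gave 0 and 0 after Benjamini-Hochberg adjustment, and 899 and 295 at that unadjusted threshold. Both leave fewer residual degrees of freedom, and the cause of the lower counts was not tested further. The 12 Tnfr-/- arrays alone gave 277.

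Leaving out 1 array gave 108 to 186 calls in Tnfr-/- lungs (108 without O3 array 1, 132 without O3 array 2, 125 without air array 2 and 117 without air array 3), 6 to 17 in Tnfr+/+ lungs (6 without O3 array 2, 9 without O3 array 3 and 7 without air array 2) and 2 to 5 in the interaction (4 without Tnfr-/- O3 array 1, 5 without Tnfr-/- air array 1, 4 without Tnfr+/+ O3 array 2 and 4 without Tnfr+/+ air array 3). The 2 interaction genes were called each time. Replicate numbers did not pair the samples (correlations of -0.031, -0.004 and -0.003 between same-numbered Tnfr-/- arrays), and a fit with a replicate block gave 202, 14 and 2. Other probe sets reversed Il4ra (-0.53) and Sc5d (-0.034), and the cause was not tested.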

Other observations

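Genes outside the lists also moved, and those given here were chosen after their values were seen. They belong to no list, so how many genes of like role did not move is not given. Of ribosome assembly, 4 genes rose beside Bysl. Nop58, a snoRNP core protein, read 349, 420.1 and 447 in Tnfr-/- O3 lungs and 164, 154 and 183 in Tnfr-/- air lungs (log2 fold change 1.28, adjusted p = 0.0121), Fbl, the rRNA methylase fibrillarin, read 1357, 1089 and 1186 in O3 and 627, 830.0 and 646 in air (0.79, adjusted p = 0.00839), and Nhp2 and Gnl3, of the snoRNP and the nucleolus, rose by 0.84 and 0.52 (adjusted p = 0.00858 and 0.0322). Also risen were 4 biosynthetic enzymes, Ctps, which makes CTP (2129.7, 2001 and 2203 in O3, 1028, 1149 and 1111 in air, 0.95, adjusted p = 0.00276), Psat1 of serine synthesis (326, 294 and 303 in O3, 121, 145 and 150.4 in air, 1.15, adjusted p = 0.00391), Aldh18a1 of proline synthesis (0.73) and the nucleotide kinase Nme1 (0.75). In Tnfr+/+ lungs none of these 8 passed, with log2 fold changes of 0.60, 0.50, 0.45, 0.47, 0.75, 0.40, -0.07 and 0.36 in the same order, and no interaction passed. Gnl3 and Nme1 lost the call when any 1 of the 6 Tnfr-/- arrays was left out (adjusted p up to 0.109 and 0.148). Nop58 lost it without O3 arrays 2 or 3 or air array 2 (up to 0.0668), Fbl without O3 array 1 or air array 3 (up to 0.0591), Nhp2 without O3 array 1 (0.0616) and Aldh18a1 without O3 arrays 1 or 2 or air arrays 1 or 2 (up to 0.121), while Psat1 and Ctps kept it.

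Single receptors of myeloid cells rose, while of the marker lists 0 of 14 monocyte and interstitial macrophage genes were called (median 0.13) and of 18 alveolar macrophage genes 1 rose and 1 fell. Clec4n (dectin 2, a fungal sensor) read 600.4, 715 and 563 in Tnfr-/- O3 lungs and 310.5, 259 and 289 in Tnfr-/- air lungs (1.13, adjusted p = 0.00453), and Csf2rb, the shared chain of the GM-CSF, IL-3 and IL-5 receptors, read 243, 232 and 191 in O3 and 92, 50.5 and 108 in air (1.48, adjusted p = 0.0165). The chemokine receptor Ccr1, the integrin chain Itgb2 and the toll-like receptor Tlr2 rose by 0.84, 0.83 and 0.61 (adjusted p = 0.0268, 0.0416 and 0.0285). Mertk, a receptor by which macrophages take up dead cells, fell. It read 536, 456 and 533 in O3 and 729.9, 834 and 886 in air (-0.68, adjusted p = 0.0055), and in Tnfr+/+ lungs 971, 936 and 940.4 in O3 and 779, 785 and 771 in air (0.29), with an interaction of -0.97 that did not pass (adjusted p = 0.106). Itga7, a laminin receptor chain, read 569, 465 and 471 in Tnfr-/- O3 lungs and 184, 175 and 154 in Tnfr-/- air lungs (1.55, adjusted p = 2.9e-05). The call was lost for Csf2rb without O3 arrays 1 or 2 or air array 2 (adjusted p up to 0.102), for Ccr1 without O3 arrays 1 or 3 or air arrays 1 or 3 (up to 0.118), for Itgb2 without O3 arrays 1 or 2 or air arrays 1 or 2 (up to 0.219) and for Tlr2 without any 1 of the 6 (up to 0.127), and held each time for Clec4n, Mertk and Itga7.

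Among genes at low values in Tnfr-/- lungs, the retinoic acid-forming enzyme Aldh1a3 read 79.8, 59.5 and 79.6 in O3 and 6.37, 8.55 and 8.31 in air (log2 fold change 3.23, or 2.18 with values of Aldh1a3 under 16 set to 16, adjusted p = 0.0246), and the stress kinase Plk3 read 118, 119.9 and 79.9 in O3 and 26.5, 16.3 and 7.25 in air (adjusted p = 0.00983). The junctophilin Jph3, the fall with the largest fold change, read 37.8, 19.2 and 15.4 in O3 and 151, 231 and 244 in air (-3.19, adjusted p = 0.0146), and the lowest Tnfr+/+ air array read 28. The call was lost for Aldh1a3 whichever of the 6 was left out (adjusted p up to 0.0888), for Plk3 without O3 array 1 or air array 3 (up to 0.0731) and for Jph3 without O3 arrays 2 or 3 or air arrays 2 or 3 (up to 0.0739).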
